A study of Mus musculus with 2 samples.

Results

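The genes described here were 40 genes known for work in germ cells and meiosis, named together as a list: RNA-binding regulators of germ cells, components of the PIWI-interacting RNA (piRNA) pathway, proteins of the synaptonemal complex and chromosome axis, meiotic cohesin and recombination factors, and other spermatogenic genes. They were 40 of 55413 annotated mouse genes. For each, CpG methylation was read in the window reaching 1 kb to both sides of the gene's 5′ end, here called the promoter, over cytosines read at least 5 times in both libraries. Cytosines inside the recognition sites of the digesting enzymes, CCGG for MspI and TCGA for TaqI, were left out. Of the 40 promoters, 28 held at least 5 such cytosines and were tested, among 19476 promoters tested in all.

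The DNA came from myotubes, multinucleate muscle cells formed in culture from mouse C3H myoblasts, harvested 48 h after they were transfected either with siH19, an siRNA that targets the non-coding RNA H19, or with a control siRNA, siCon. The assay was reduced representation bisulfite sequencing, which reads the ends of short restriction fragments and leaves methylated cytosines as C. There was 1 library for each treatment, so every difference below is between 2 libraries. Intervals and p-values cover counting error only, and the spread between cultures cannot be told apart from the knockdown. These DNA libraries hold no measure of H19 RNA.

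Genes that serve only germ cells are kept silent in the body's other tissues, and many of them carry CpG-rich promoters that gain DNA methylation in the early embryo. DNMT3B places much of this methylation, and a form of the Polycomb complex PRC1 that contains E2F6, MGA and PCGF6 is known to recognise many of the same promoters through E2F sites and E-boxes. Most other CpG-rich promoters stay free of methylation in every tissue, whether or not the gene is expressed.

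The CpG-rich stretches below show what such a promoter looks like at the level of single CpGs. They come from the 3 genes with the highest pooled methylation among the listed genes measured at 10 or more cytosines, Ddx4, Tex14 and Mael, and from Smc1b, a gene in which a well methylated stretch and a poorly methylated stretch lie side by side. Each is given 5′ to 3′ on the gene's own strand, from the GRCm38 genome, and capitals mark the CpGs at which methylation was measured. The Ddx4 stretch (chr13:112652076-112652275, minus strand) lies in an intron, from 200 to 399 bp past the 5′ end. The Tex14 stretch (chr11:87405242-87405441, plus strand) is also intronic, and 4 of its 7 measured CpGs lie in soft-masked, repeat-derived sequence. The Mael stretch (chr1:166238748-166238947, minus strand) ends just before the gene. The first Smc1b stretch (chr15:85131690-85131889, minus strand) starts 75 bp past the 5′ end, and 61 of its 200 bp are coding. The second (chr15:85131965-85132077, minus strand) is the 113 bp between the 5′ end of Smc1b and that of Ribc2, which is transcribed the other way.
Ddx4 intron: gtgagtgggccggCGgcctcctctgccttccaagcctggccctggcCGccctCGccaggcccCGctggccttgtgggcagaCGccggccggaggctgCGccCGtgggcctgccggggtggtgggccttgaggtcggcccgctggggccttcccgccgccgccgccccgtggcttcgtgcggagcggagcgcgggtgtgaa
Tex14 intron: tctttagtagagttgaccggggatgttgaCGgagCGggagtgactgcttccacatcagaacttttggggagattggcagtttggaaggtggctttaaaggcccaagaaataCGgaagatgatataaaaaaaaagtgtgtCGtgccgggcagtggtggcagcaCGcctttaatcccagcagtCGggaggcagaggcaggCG
Mael upstream: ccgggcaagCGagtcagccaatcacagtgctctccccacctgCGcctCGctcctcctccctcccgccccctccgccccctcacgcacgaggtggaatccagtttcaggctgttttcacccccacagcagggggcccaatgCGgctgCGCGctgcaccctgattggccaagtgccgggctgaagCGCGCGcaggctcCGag
Smc1b inside the gene: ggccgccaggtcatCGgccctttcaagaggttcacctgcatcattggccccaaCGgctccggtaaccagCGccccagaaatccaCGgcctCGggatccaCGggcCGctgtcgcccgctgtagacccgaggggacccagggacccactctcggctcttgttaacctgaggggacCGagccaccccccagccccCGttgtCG
Smc1b upstream: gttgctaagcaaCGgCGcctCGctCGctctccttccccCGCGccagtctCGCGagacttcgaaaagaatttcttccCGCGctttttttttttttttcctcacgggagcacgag

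Averaged over their measured cytosines, these stretches ran from nearly full to low methylation. The 7 measured CpGs of the Ddx4 intron averaged 94.0% in siCon and 89.1% in siH19. The Tex14 intron averaged 98.2% and 95.8%. The Mael upstream stretch averaged 81.5% and 86.2%, with single cytosines from 35% to 100% in siCon. In Smc1b the stretch inside the gene averaged 69.0% in siCon and 67.9% in siH19, while the one upstream of it averaged 24.3% and 23.7%. The order of the stretches was the same in both libraries.

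The germline promoters as a group were heavily methylated in these muscle cells. The level was counted as methylated reads among all reads in the window, with a read counted once at each covered cytosine it spans. In siCon it had a median of 79.8% over the 28 promoters and ran from 24.2% at Tdrd5 to 96.4% at Ddx4. In siH19 the median was 77.2%, from 22.0% at Tex15 to 94.6% at Ddx4. With every cytosine weighted equally the medians were 76.0% in siCon and 78.1% in siH19, so their order depends on the weighting. In both libraries 21 of the 28 promoters (75%) stood at 50% or more, 11 stood at 80% or more, and none was below 10%. Over all 13554 protein-coding promoters tested, the median was 2.07% in siCon and 2.05% in siH19, 7.03% of promoters stood at 50% or more in both libraries, and 68.8% were below 10% in both.

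**Figure D1:**
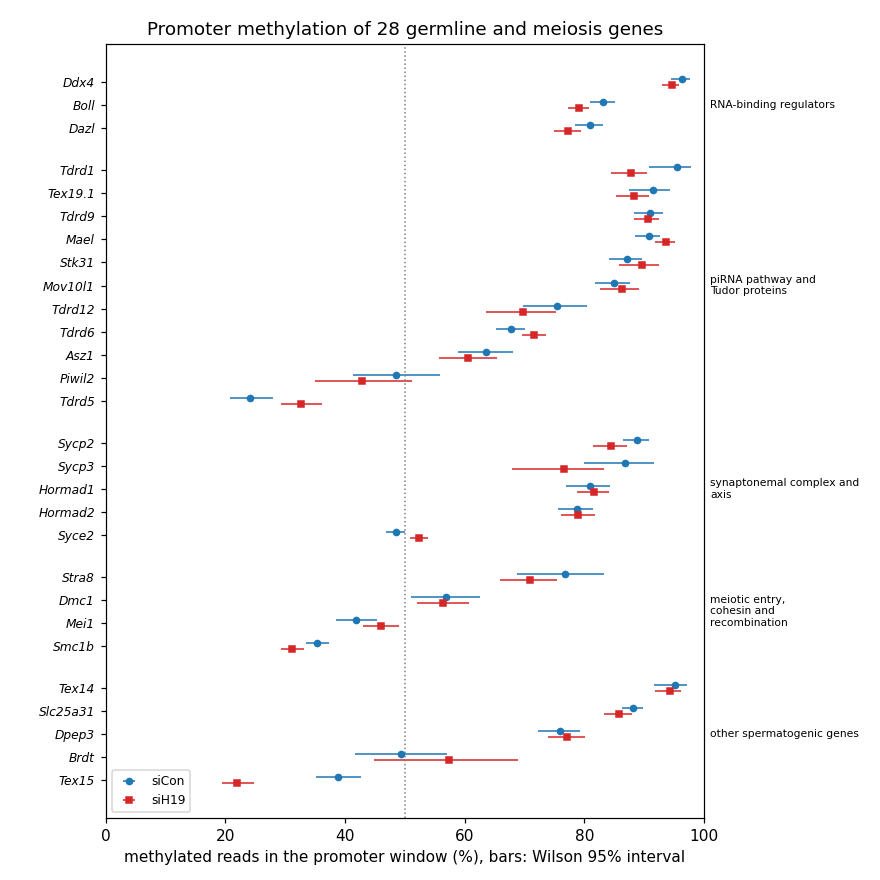
Promoter methylation of the 28 germline and meiosis genes by role, as the percentage of methylated reads in the window. Circles are siCon, squares are siH19, bars are Wilson 95% intervals from read counts, and the dotted line is at 50%. Most genes stand to the right of that line in both libraries, from 50% up to 96.4% at Ddx4, and 7 genes lie below it in at least 1 library.

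Low CpG density alone often goes with high methylation, so germline promoters of intermediate density were set beside promoters of like density. All 28 held a CpG island computed from sequence, as did 96.5% of protein-coding promoters. Their ratio of observed to expected CpGs had a median of 0.522 and ran from 0.291 to 0.830, against a median of 0.619 over protein-coding promoters. Between the quartiles of the germline genes, 0.457 and 0.637, lay 4787 protein-coding promoters, of which 234 (4.89%) stood at 50% or more in both libraries. In that same range, 11 of 14 germline promoters did. Germline promoters outside this range were not set beside promoters of like density. Among the 28 promoters, the ratio hardly tracked the level (Pearson r of -0.088 across genes, which are not independent replicates).

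**Figure D2:**
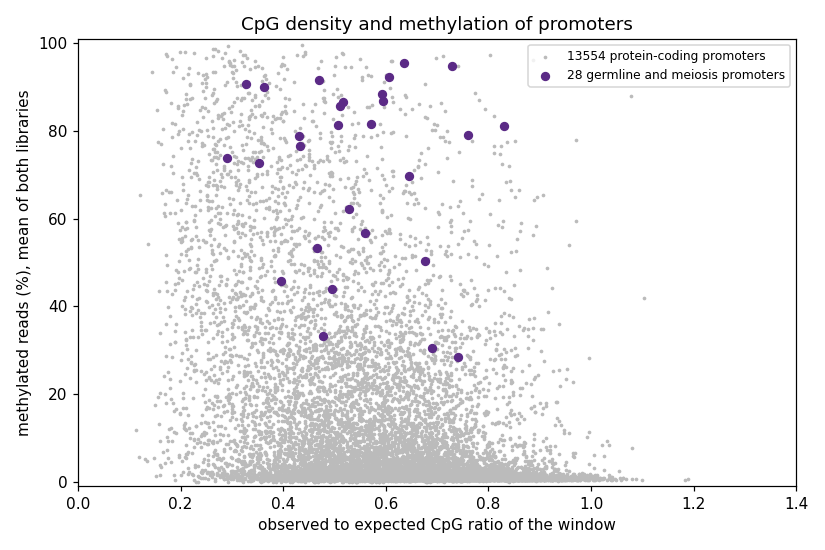
Observed to expected CpG ratio of the promoter window (horizontal axis) and percentage of methylated reads, mean of both libraries (vertical axis). Grey dots are 13554 protein-coding promoters and purple circles are the 28 germline and meiosis promoters. Most grey dots lie near 0%, with a median of 2.07% in siCon, but 953 of these promoters stand at 50% or more in both libraries. The purple circles, at ratios from 0.291 to 0.830, all lie above that median.

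The methylation reached across the 5′ end itself. In the 250 bp before it, 13 germline genes were measured, and the median of their mean levels was 81.5% in siCon and 78.5% in siH19. In the 250 bp past it, 19 genes had medians of 83.5% and 82.5%. Among all promoters measured in these bins the medians were near 1%, at 0.948% and 1.02% before the 5′ end and 0.947% and 1.03% past it. The gap was narrower far from the start: at 750 to 1000 bp past it, all promoters had a median of 4.92% in siCon and 6 germline genes one of 72.6%.

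The RNA-binding regulators, which control translation in germ cells, were highly methylated at all 3 promoters tested. Ddx4, the Vasa helicase that marks the germ line, stood at 96.4% in siCon and 94.6% in siH19 over 52 cytosines. Boll, of the same family of translation regulators as Dazl, stood at 83.1% and 79.1% over 85 cytosines. Dazl itself, needed for germ cell commitment to gamete formation, stood at 80.9% and 77.2% over 88. These 3 promoters were at or above 77.2% in both libraries. Nanos3, which keeps primordial germ cells alive, had 1 covered cytosine, at 20% of 15 reads in siCon and 36.7% of 30 reads in siH19. Nanos2, of the spermatogonial stem cells, and Dnd1, of primordial germ cells, had none.

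The piRNA pathway protects germ cells from transposons, and Tudor proteins scaffold it in cytoplasmic granules. Of its 13 listed genes, 11 were measured, 9 stood at 50% or more in both libraries, and the median was 85.0% in siCon and 86.2% in siH19. Of the Tudor proteins, Tdrd1 stood at 95.4% in siCon and 87.8% in siH19. Tdrd9, which is also a helicase, stood at 91.0% and 90.6%, Tdrd12 at 75.5% and 69.7%, and Tdrd6, of the chromatoid body, at 67.8% and 71.6%. Tdrd5 was the exception within the family, at 24.2% in siCon and 32.7% in siH19. Thus 4 of the 5 measured Tudor genes of this name were mostly methylated and 1 mostly unmethylated.

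Among the other piRNA genes, Mael, which acts in transposon silencing, stood at 90.7% in siCon and 93.7% in siH19. Tex19.1, which restrains transposons, stood at 91.5% and 88.4%. Stk31, a Tudor protein with a kinase-like part, stood at 87.2% and 89.6%. Mov10l1, the helicase that starts piRNA production, was close to these at 85.0% and 86.2%. Asz1, which anchors the machinery at mitochondria, stood at 63.6% and 60.6%, lower than these 4 in both libraries. Piwil2, a PIWI protein, stood at 48.6% in siCon, with a Wilson 95% interval of 41.4% to 55.9%, and 42.9% in siH19 (35.0% to 51.1%), so that neither level can be placed below or above 50% at this depth. Piwil1, another PIWI protein, had 2 covered cytosines and Piwil4 none.

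Of the 8 synaptonemal complex and axis genes, 5 were measured and 4 stood at 50% or more in both libraries, with medians of 80.9% in siCon and 79.0% in siH19. Sycp2 and Sycp3 encode lateral elements of the complex that joins paired chromosomes. Sycp2 stood at 88.8% and 84.5%, and Sycp3 at 86.8% and 76.5% over just 6 cytosines, all 284 to 421 bp past the 5′ end. The axis proteins Hormad1 (80.9% and 81.7%) and Hormad2 (78.7% and 79.0%), which monitor pairing, lay close together. Syce2, of the central element, stood lowest of the 5, at 48.5% in siCon and 52.3% in siH19, on 87 cytosines and 3701 and 4445 reads. Tex12, another central element gene, had 2 covered cytosines at 95.7% and 100%, and Sycp1 and Syce1 had none.

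The genes of meiotic entry, cohesin and recombination formed the least methylated group, with 2 of 4 measured promoters at 50% or more and medians of 49.4% in siCon and 51.2% in siH19. Stra8, which starts meiosis in response to retinoic acid, stood at 76.8% and 70.9%. Its 9 covered cytosines all lay 802 to 876 bp past the 5′ end, so the part near the 5′ end was not measured. Dmc1, the meiotic recombinase, stood at 56.9% and 56.4%. Mei1, needed for meiotic double-strand breaks, stood at 41.8% in siCon and 46.0% in siH19, and Smc1b, the meiotic cohesin subunit, at 35.3% and 31.2%. The cohesin Rec8 and Spo11, which makes the breaks, had no covered cytosine in this window, and Meioc, which sustains meiotic prophase, had 2.

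Of the other spermatogenic genes, 3 of 5 measured promoters stood at 50% or more. Tex14, of the bridges between germ cells, stood at 95.1% in siCon and 94.3% in siH19, and at 91.5% and 89.3% over the 8 of its 17 cytosines outside soft-masked sequence. Those 17 lay 50 to 826 bp past the 5′ end. The side that faces Rad51c, a gene read the other way with its 5′ end at -111 bp, was therefore not measured. Slc25a31, an ADP/ATP carrier of sperm, stood at 88.1% and 85.8%, and Dpep3, a testis dipeptidase, at 75.9% and 77.2%. Brdt, the testis bromodomain protein, was measured at 5 cytosines, none within 250 bp of the 5′ end, and stood at 49.4% and 57.4%. The 4 upstream cytosines averaged 81.25% and 92.3%, and the 1 at 708 bp past the 5′ end stood at 16.7% and 12%. That cytosine held 49.4% of the window's reads in siCon and 41.0% in siH19. Weighted equally, the 5 averaged 68.3% and 76.2%. Tex15, needed for meiosis in males, stood at 38.8% in siCon and 22.0% in siH19. With every cytosine weighted equally, Tex15 averaged 44.7% and 43.3%. Its cytosines lay 502 to 938 bp past the gene's 5′ end, and its window held no annotated transcript start. Tex101, a sperm fertility factor, had no covered cytosine in its window.

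Libraries were compared within each cytosine, by the Mantel-Haenszel difference in percentage points (siH19 minus siCon, here the matched difference) and the Cochran-Mantel-Haenszel test with Benjamini-Hochberg adjustment over all 19476 promoters. A promoter was called where the adjusted p was under 0.05 and the difference reached 10 points. None of the 28 germline promoters was called, while 0.626% of all tested promoters were (0.442% higher and 0.185% lower in siH19). The lowest adjusted p of a germline promoter was 0.135. Before adjustment, 4 of the 28 had a p under 0.05, beside 21.3% of all promoters, with Tdrd5 and Tdrd6 higher and Sycp2 and Smc1b lower in siH19.

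The matched differences were small and fell evenly around 0. They were positive in 14 genes and negative in 14, with a median of -0.0226 points, beside 0.0884 points over all promoters tested, and the sign of that median changed between settings. They ran from -6.43 to 5.99 points, and 25 of 28 lay within 5 points of 0. Across the roles, the median difference ran from -2.13 points in the meiotic entry, cohesin and recombination group to 0.54 points in the other spermatogenic genes. Levels in the libraries followed each other closely from gene to gene (Pearson r of 0.967 over 28 genes, which are not independent replicates).

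**Figure D3:**
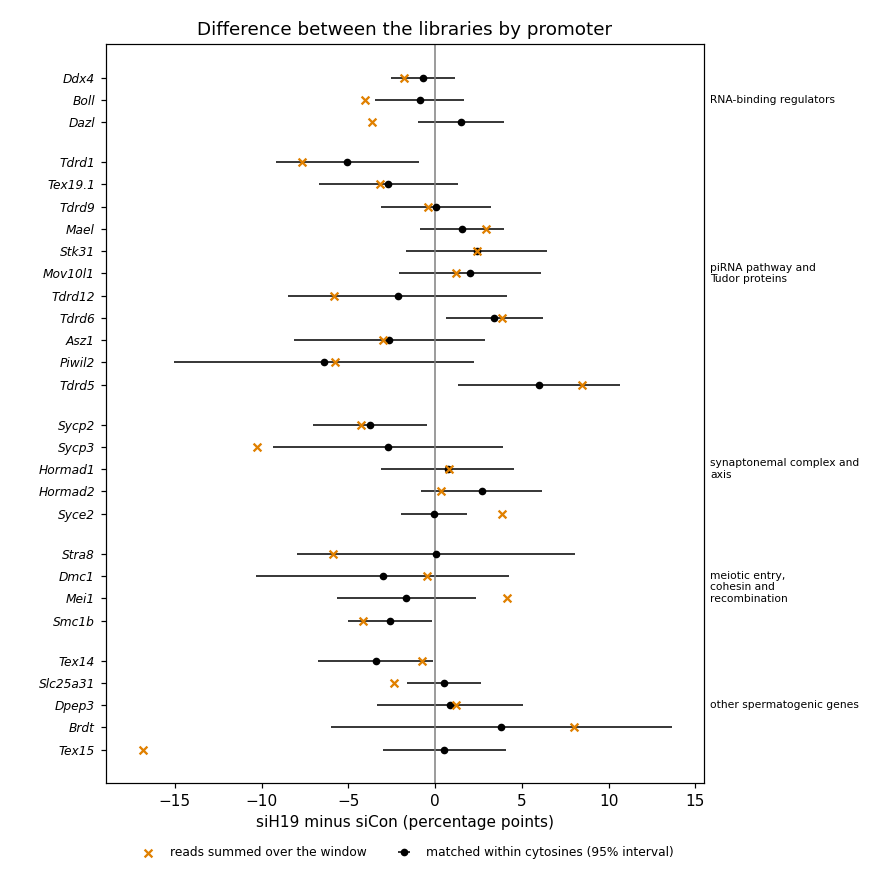
Difference between siH19 and siCon, in percentage points, for each of the 28 promoters by role. Black circles with bars are differences matched within cytosines with 95% intervals, and orange crosses are differences of the reads summed over the window. The circles lie between -6.43 and 5.99 points, while the cross of Tex15 lies at -16.8 points.

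The 5 largest matched differences were at Piwil2, Tdrd5, Tdrd1, Brdt and Sycp2. Piwil2 (chr14:70428383-70430383) had 8 covered cytosines with 179 reads in siCon and 140 in siH19. Its matched difference was -6.43 points (95% interval -15.1 to 2.22), with chi-square p = 0.176 and an adjusted p of 0.457. The interval includes both 0 and differences of over 10 points. The matched difference was -15.4 points over the 3 cytosines of the plus strand and -4.28 points over the 5 of the minus strand. Its size turned on the cytosines included, at -1.02 points with the 2 soft-masked cytosines left out, -0.95 points with recognition sites kept and -12.5 points as an unweighted mean.

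Tdrd5 (chr1:156302664-156304664) had 30 covered cytosines, and its matched difference was 5.99 points (95% interval 1.30 to 10.7), chi-square p = 0.0186, adjusted p = 0.135. The plus strand gave 5.30 points and the minus strand 6.41 points, so both strands were higher in siH19. Over cytosines read 10 or more times in both libraries the difference was 2.96 points (chi-square p = 0.273). The difference was not spread evenly. From 100 to 199 bp past the 5′ end the mean level was 18.2% in siCon and 34.5% in siH19 (matched difference 13.3 points, 95% interval 6.19 to 20.5), whereas in the first 100 bp it was 32.2% and 25.1% (-2.07 points, -8.86 to 4.73). These stretches were chosen after their values were seen.

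Tdrd1 (chr19:56825209-56827209) had 10 cytosines between 284 and 455 bp past the 5′ end, with 153 reads in siCon and 458 in siH19. Its matched difference was -5.06 points (95% interval -9.18 to -0.94), chi-square p = 0.0622, adjusted p = 0.262, and both strands were lower in siH19, at -6.11 and -3.09 points. With cytosines inside recognition sites kept, it was -0.0938 points (chi-square p = 0.964). Brdt (chr5:107330159-107332159), at 158 and 61 reads, had a difference of 3.82 points (-6.03 to 13.7), chi-square p = 0.503, adjusted p = 0.757. That interval too includes both 0 and differences of over 10 points, and the value was 7.91 points as an unweighted mean. Sycp2 (chr2:178406685-178408685) had a difference of -3.75 points (-7.04 to -0.46), chi-square p = 0.0274, adjusted p = 0.170, with -5.33 points over minus-strand and -0.95 over plus-strand cytosines.

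The other promoters with an unadjusted p under 0.05 were Tdrd6 and Smc1b. Tdrd6 had a matched difference of 3.42 points (95% interval 0.62 to 6.21, chi-square p = 0.0220, adjusted p = 0.149), with -0.05 points over plus-strand and 6.02 over minus-strand cytosines. Smc1b had one of -2.60 points (-5.00 to -0.20, chi-square p = 0.0353, adjusted p = 0.195), with -5.01 points over plus-strand and 0.86 over minus-strand cytosines. In both genes the difference lay mainly on 1 strand. Not every CpG was covered on both strands, as Tdrd6 had 31 plus-strand and 32 minus-strand cytosines in 36 CpGs. Over the 384 germline CpGs covered on both strands, the strands of a single library differed by 9.71 points on average in siCon and 9.08 in siH19, while the libraries differed by 8.97 points for plus-strand and 8.74 for minus-strand cytosines.

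In 7 of the 28 genes the summed reads and the matched difference pointed in opposite directions. Tex15 showed this most. The reads summed to 38.8% methylated in siCon and 22.0% in siH19, a summed difference of -16.8 points, but its matched difference was 0.54 points (95% interval -2.99 to 4.06). From 500 to 599 bp past the gene's 5′ end, 11 cytosines averaged 6.53% in siCon and 6.85% in siH19, and from 600 to 999 bp 22 cytosines averaged 63.7% and 61.5%. The low stretch held 41.8% of the window's reads in siCon and 74.7% in siH19. Each stretch therefore kept its level while the libraries placed their reads differently.

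Other windows also held a high and a low part, and the parts kept their order in both libraries. In Smc1b, 39 cytosines in the 400 bp before the 5′ end averaged 24.6% in siCon and 23.0% in siH19, and 20 cytosines in the first 300 bp past it averaged 69.0% and 67.9%. The low side faces Ribc2, a gene read the other way whose 5′ end lies at -114 bp. Of the 2 tested genes with another protein-coding start in the window, the other was Tex14, which was not measured on that side. Syce2 averaged 56.5% and 57.1% in the 200 bp before its 5′ end, 29.8% and 31.5% from 400 to 599 bp past it, and 99.4% and 98.4% from 800 to 899 bp. In Asz1 the 100 bp before the 5′ end averaged 81.7% and 76.9%, and the first 100 bp past it 49.5% and 40.7%. Mei1 averaged 27.8% and 32.4% from 100 to 199 bp past the 5′ end, and 60.0% and 57.2% from 200 to 299 bp. In Dazl the core from 500 bp before to 499 bp past the 5′ end averaged 94.9% in siCon and 92.9% in siH19, and the part from 500 to 899 bp averaged 50.5% and 59.5%. The parts of these windows were chosen after their values were seen.

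**Figure D4:**
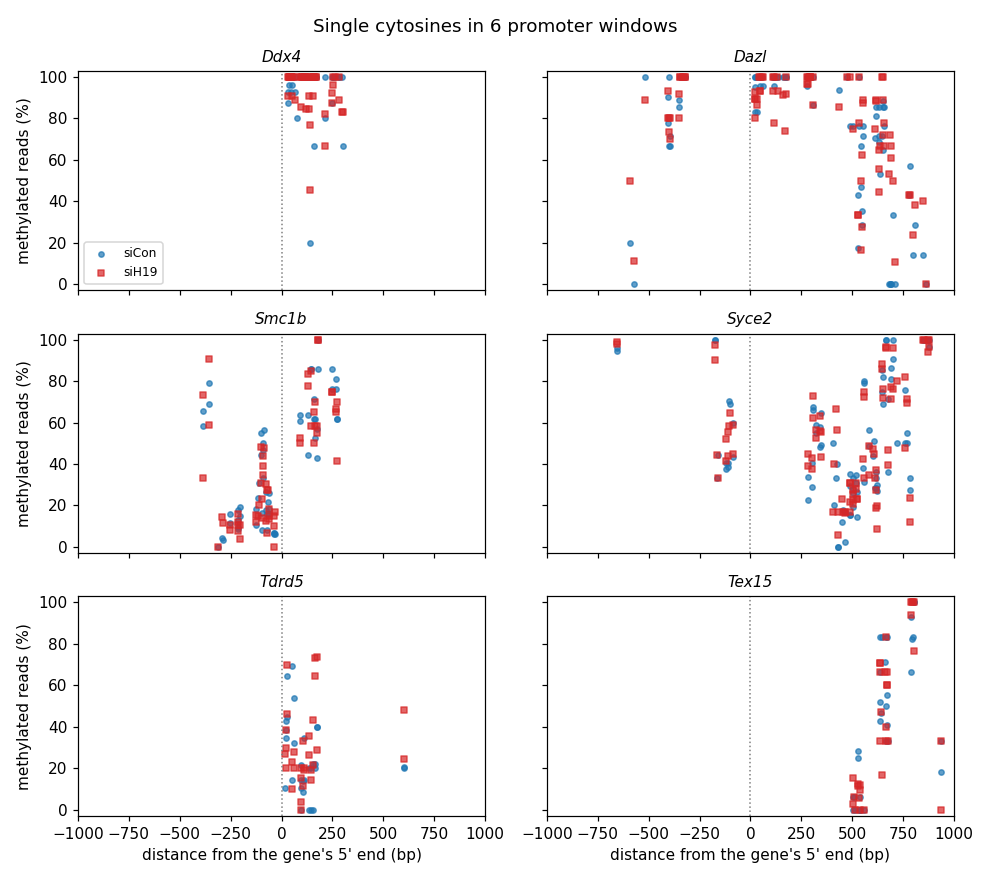
Methylation of single cytosines (vertical axis, percentage of methylated reads) against distance from the gene's 5′ end in bp (horizontal axis, positive into the gene) in 6 windows chosen after their values were seen. Blue circles are siCon and red squares are siH19. Ddx4, measured only from 30 to 302 bp past the 5′ end, is high at most cytosines, although its lowest stands at 20% in siCon. Smc1b steps from a mean of 24.6% before the 5′ end to 69.0% past it in siCon, and Tex15 splits into a stretch near 6.53% and one near 63.7%.

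Of the 901 covered cytosines in the listed promoters, which lay in 517 CpGs, 424 stood at 80% or more in both libraries and 62 at 20% or less in both. Fisher's exact test, two-sided, was run on each, and a cytosine was called strongly changed where p was under 0.05 and the libraries were 33 points or more apart. This held for 16 cytosines in 9 genes (1.78%), 9 higher and 7 lower in siH19, beside 0.986% of all 1850635 cytosines (0.519% higher and 0.467% lower). None had a Benjamini-Hochberg adjusted p under 0.05, beside 0.00648% of all cytosines, and 32 had an unadjusted p under 0.05, beside 2.53%. Of the 16, 12 had the opposite strand covered, and in 6 of these the opposite strand differed in the same direction. Those 6 include both strands of a single Tdrd5 CpG, each counted as the other's opposite strand. In Piwil2 and Tdrd6 the opposite strand differed by just -2.10 and 2.38 points.

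The clearest single CpG was in Tdrd5, at chr1:156303498-156303499, 165 bp past the 5′ end in an untranslated exon that overlaps the gene 4930518J20Rik. Its plus strand was methylated in 22.2% of 9 reads in siCon and 73.0% of 37 reads in siH19, and its minus strand in 20% of 10 reads and 64.3% of 28 reads. Fisher's exact p was 0.00783 and 0.0265, and the adjusted p was 1 for both. Another strongly changed Tdrd5 cytosine, on the plus strand 54 bp past the 5′ end, was lower in siH19. It stood at 69.2% of 13 reads in siCon and 10% of 10 reads in siH19, with its partner at 14.3% and 23.1%. In Smc1b, the minus-strand cytosine at position 85131836 of chromosome 15, in a coding exon, was methylated in 44.2% of 43 reads and 77.8% of 18 reads, and its partner in 63.6% and 83.3%, the latter on 6 reads. In Boll, the minus-strand cytosine at position 55363502 of chromosome 1, 33 bp upstream in soft-masked sequence, was lower in siH19. It stood at 100% of 9 reads in siCon and 60% of 40 reads in siH19, with its partner at 100% and 87.5%.

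The other strongly changed cytosines were not matched by their partners or had none covered. In Dazl, 4 neighbouring plus-strand cytosines in an intron, 682 to 693 bp past the 5′ end, had no methylated read among 6 in siCon and 52.9% to 72.2% in siH19, on 17 or 18 reads. They lie close enough for single reads to cover all 4, so they are not independent. In Tdrd6 the minus-strand cytosine 181 bp past the 5′ end, in a coding exon, stood at 57.5% of 40 reads and 97.1% of 34 reads (Fisher's exact p = 6.80e-05, adjusted p = 0.229), while its partner stood at 64.3% and 66.7%. In Mei1 the minus-strand cytosine 261 bp past the 5′ end stood at 87.5% of 48 reads and 54.1% of 61 reads (Fisher's exact p = 0.000173, adjusted p = 0.346), while its partner stood at 69.2% and 82.4%. These last genes were named after their values were seen.

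For 6 genes the annotation's gene 5′ end lay more than 1 kb from every transcript start in the basic annotation, at distances from 1872 bp in Meioc to 53806 bp in Tex15. Around the transcript starts themselves, 3 of these genes could be read, and all 3 were methylated. Meioc had 88 covered cytosines there at 85.8% in siCon and 88.7% in siH19, with a matched difference of 3.83 points (95% interval 1.76 to 5.91). Tex101 had 28 at 70.7% and 78.9% (5.42 points, 1.39 to 9.45), and Spo11 33 at 61.7% and 59.1% (0.15 points, -3.67 to 3.96). With every basic transcript start used, 1 of 30 listed genes tested had an adjusted p under 0.05 (0.0171, chi-square test). None of the 30 was called, beside 132 of 20297 promoters in that setting. In the main windows, 7.39% of all promoters had an adjusted p under 0.05 with no minimum difference. Tex15 and Piwil1 had no covered cytosine at their transcript starts, and Nanos3 had 1.

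Sequence motifs bound by factors known to silence germline genes were searched in the 300 bp from 250 bp before to 50 bp past the 5′ end, on both strands. CACGTG, the E-box, which reads the same on both strands, was found in 13 of 40 listed genes (32.5%), beside 7.75% of all 21938 protein-coding promoters and 10.6% of those of like CpG ratio. It lay at -57 and -20 bp in Hormad1, at -46 and -25 bp in Sycp3, at -165 and -95 bp in Tdrd9, and at -11 bp in Tdrd1. TCCCGC, an E2F motif, was also found in 13 of 40 (32.5%), beside 24.0% of all and 33.7% of those of like CpG ratio. It lies in the printed Mael stretch at -140 bp and in the upstream Smc1b stretch at -40 bp. The 40 genes were not limited by CpG ratio and include promoters that could not be tested. Those of like CpG ratio were all tested and lie between 0.457 and 0.637. The shares of either motif are therefore not matched for density. Both motifs, which can share at most 1 letter, occurred in 6 listed genes. Of the 11 tested promoters with CACGTG, 8 stood at 50% or more in both libraries, and of the 11 with TCCCGC, 9 did, beside 21 of all 28.

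Genes of the same pathways outside the list gave a mixed picture. Of 9 other piRNA genes in the annotation, 8 could be tested and 5 stood at 50% or more in both libraries, with medians of 67.2% and 73.3%. Gtsf1, a piRNA pathway zinc finger protein, stood at 97.1% in siCon and 96.0% in siH19, and Ddx25, a testis helicase, at 18.8% and 20.4%. None was called, beside 0.626% of all promoters, and 1 had an adjusted p under 0.05 with no minimum difference, beside 7.39%. This was Pld6, the mitochondrial nuclease of piRNA production, at 34.6% and 26.1% (matched difference -6.94 points, 95% interval -10.3 to -3.56, chi-square test, adjusted p = 0.00365).

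Of 23 other meiosis genes in the annotation, 15 could be tested. Of these, 6 stood at 50% or more in both libraries and 3 below 10%, with medians of 27.6% and 27.8%. Msh4, a meiotic crossover factor, stood at 97.9% in siCon and 97.3% in siH19, while its partner Msh5 stood at 0.60% and 1.03%. Trip13, an ATPase that also acts in the mitotic checkpoint of dividing cells, stood at 0.0735% and 1.45%, with a matched difference of 1.27 points (95% interval 0.82 to 1.72, chi-square test, adjusted p = 0.00403). It was the only one of the 15 with an adjusted p under 0.05 at any size, beside 7.39% of all promoters, and none was called, beside 0.626%. The promoters of this wider list thus ran from unmethylated to nearly full.

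The genes whose products silence germline genes in other tissues were themselves mostly unmethylated. All 16 were tested, 12 stood below 10% in both libraries, and the medians were 2.10% in siCon and 1.75% in siH19. Dnmt3b stood at 2.33% and 1.37% and E2f6 at 4.87% and 8.93%. Dnmt1 stood at 73.3% and 73.9% over the 8 cytosines covered in its window. None of the 16 was called, beside 0.626% of all promoters, and 1 had an adjusted p under 0.05 with no minimum difference, beside 7.39%. This was Mga, a partner of E2F6, at 20.1% in siCon and 28% in siH19 (matched difference 5.05 points, 95% interval 2.29 to 7.81, chi-square test, adjusted p = 0.0134).

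The 12 listed genes that could not be tested limit these counts: 4 had 1 to 4 covered cytosines and 8 had none, namely Spo11, Sycp1, Nanos2, Tex101, Syce1, Piwil4, Rec8 and Dnd1. Depth was similar in both libraries, with median depths of 12 and 13 reads per cytosine. With a read counted once at each cytosine it covers, the sums were 104999613 over 5453019 cytosines in siCon and 106372792 over 5266846 in siH19. Per promoter the sums, counted in the same way, were uneven. They ran from 125 at Stra8 to 3701 at Syce2 in siCon and from 61 at Brdt to 4445 at Syce2 in siH19.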

How the data were processed

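CpG methylation was read by reduced representation bisulfite sequencing from 1 library of siCon and 1 of siH19 myotubes, grouped by the sample labels. The authors digested DNA with TaqI and MspI, aligned reads with Bismark in non-directional mode with filled-in nucleotides trimmed, and divided the C reads at a cytosine by its C and T reads to get the level. The submitters' processing notes name bcl2fastq 1.8.4 and mm10. The deposited files hold 1 entry per cytosine and strand, with a text field of methylated and total reads and a score, the same level scaled by the authors and rounded. The counts from the text field were used without normalization, and the score only checked their parsing. Removal of duplicate reads was not given in the sources used here.

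All 6041258 positions on assembled chromosomes fell on CpGs of GRCm38, and coordinates count from 1. Genes, strands and 5′ ends came from the GENCODE vM21 basic annotation, and sequence from the RefSeq copy of GRCm38. Of 3413804 cytosines read 5 or more times in both libraries, 1850635 outside CCGG and TCGA were used. A promoter with at least 5 of them within 1 kb of the 5′ end was tested by a two-sided Cochran-Mantel-Haenszel test with cytosines as strata, a Mantel-Haenszel difference and a 95% interval, and cytosines by Fisher's exact test, both with Benjamini-Hochberg adjustment over everything tested. Single levels carry Wilson 95% intervals. Computed islands spanned 200 bp or more, with a GC content of 50% or more and a CpG ratio of 0.6 or more. Reads carry no molecular identifiers and a read spans several CpGs, so reads are not independent and intervals and p-values are too narrow. The tests were tested on simulated data with known changes. Python 3.11.15, numpy 2.4.6, pandas 2.3.3, scipy 1.17.1, numba 0.67.0, statsmodels 0.14.6 and matplotlib 3.10.9 were used.

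The 40 genes, their roles and the lists of other pathway genes were chosen with earlier results of these data known. Full statistics were given for called promoters and otherwise for the 5 with the largest absolute difference, and single cytosines were named where strongly changed with the opposite strand at least 10 points the same way. Other names were chosen after values were seen. The listed names Gasz and Iho1, other names of Asz1 and Ccdc36, are not symbols of the annotation and were not counted again. Sequences were those of the 3 highest and, with at least 5 measured CpGs outside untranslated regions at an annotated transcript start, the lowest of the genes with at least 10 cytosines, in the 200 bp holding most measured CpGs. The upstream Smc1b stretch was added after its values were seen. Other read minimums, windows, transcript starts, strand handling, masks and tests were tried as alternatives.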

Additional observations from a re-analysis of the deposited data

How the results depend on the processing

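None of the 5 promoter differences given in full changed sign under a setting that gave it a value, but sizes moved: Piwil2 ran from -0.95 points with recognition sites kept to -12.5 points unweighted, against -6.43, Tdrd1 was -0.0938 points with those sites kept, against -5.06, and Tdrd5 was 2.96 points with at least 10 reads in each library, against 5.99. The median difference, -0.0226 points, changed sign, to 0.0257 with at least 10 reads and 0.0235 without soft-masked sequence. The count of strongly changed cytosines in the listed promoters moved most, from 16 to 6 with at least 10 reads in each library, to 2 with the strands of a CpG summed, and to 0 when the adjusted p decided. The median siH19 level was 80.5% in windows of 500 bp on both sides, against 77.2%. With Fisher's exact test on reads summed over the window, 1 listed promoter was called, Tex15 (summed difference -16.8 points, adjusted p = 6.55e-11). By the same Fisher's exact test, Tdrd5 (8.49 points, adjusted p = 0.0106) and Tdrd1 (-7.65 points, adjusted p = 0.0366) passed the threshold on p but not 10 points, as did Syce2 (adjusted p = 0.00636), Smc1b (0.0221) and Boll (0.0301), which makes 6 listed promoters with Tex15. The share of all promoters past that threshold on p alone was not counted, so these 6 have no background beside them. Summed reads also move with read placement, and the matched difference of Syce2 was -0.0666 points. No listed promoter was called in any other alternative. Calls over all promoters were 122, against 491 with Fisher's exact test on summed reads, 36 with a quasi-binomial model, 66 with at least 10 cytosines and 1440 with no minimum difference. Strongly changed cytosines over the genome were 18246, against 11143 with at least 10 reads, 8638 with strands summed, 48363 with recognition sites kept and 120 by adjusted p. Leaving out the window without a transcript start (Tex15), an alternative added after seeing the data, changed no call. No paired analysis was possible because each group had 1 library. Depth limits genes with few cytosines, such as Brdt and Piwil2, whose intervals reach past 10 points.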

Other observations

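The bodies of the listed genes, past the promoter window, were measured for 29 genes, with median levels of 53.2% in siCon and 46.5% in siH19 and a range of 22.3% to 85.0% in siCon. For the 6 genes with no transcript start in the window, the body holds those starts. These include Nanos3 and Meioc, the lowest and highest of the range. Cytosines given above around the transcript starts of Meioc, Tex101 and Spo11 are thus mostly counted here again. Matched within cytosines, the bodies had a median difference of 0.000969 points, positive in 15 and negative in 14, from -13.8 to 6.13 points. In 20 genes both body and promoter were measured, and the promoter stood above the body in 14 of these in both libraries. Tdrd9 stood at 91.0% in its promoter and 41.1% in its body in siCon, and Tex14 at 95.1% and 23.5%. Tdrd5 and Piwil2 had the opposite order, at 24.2% and 53.2% for Tdrd5 and at 48.6% and 77.9% for Piwil2.

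Promoters of cell type markers were read as a check on the label, although promoter methylation is not expression and does not define a cell type. Of 9 skeletal muscle markers 7 were measured and gave no uniform picture. Des, the muscle intermediate filament, stood at 3.98% in siCon and 5.00% in siH19, Myod1 at 34.1% and 39.4%, and Myog at 72.7% and 80% over 6 cytosines. Of 4 epithelial markers, 3 stood at 50% or more in both libraries, with Krt8 at 96.4% and 95.6%. None of the 3 blood markers had a covered cytosine, and none of the markers measured was called, beside 0.626% of all promoters.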
